A study of Ovis aries with 24 samples.

Results

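The genes described here make, sense, move, esterify and export cholesterol. They came from a list of 33 symbols that was looked up in the count tables of 2 tissues. Of these, 32 had a row among the 27716 rows of each table. They comprised 17 genes of sterol synthesis, 4 of its regulation, 3 of sterol transport inside the cell, 5 of the liver X receptor (LXR) and efflux arm, and 3 of cholesterol esterification and hydroxylation. IDI1 was found through a locus identifier that the RefSeq gene table pairs with that symbol, and CYP51A1 was not analysed here. All 32 passed the low-count filter in both tissues.

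The 24 libraries were made from poly-A RNA of preterm lambs (Ovis aries), 12 from liver and 12 from the periventricular white matter (PVWM), which lies beside the lateral ventricles of the brain. They came from 13 lambs, of which 11 gave both tissues. Budesonide lambs were ventilated and received the porcine surfactant poractant alfa into the trachea at 2.5 mL/kg together with the synthetic glucocorticoid budesonide at 0.25 mg/kg. Surfactant lambs were ventilated and received the same dose of surfactant alone. Unventilated lambs received neither agent. Each group held 4 lambs per tissue. The budesonide and surfactant lambs were at 126 days of gestation, except for 1 lamb of 127 days in each group, and the unventilated lambs were at 127 or 128 days. That lamb of 127 days was also the only male of its group, 054 with budesonide and 007 with surfactant. In each tissue the unventilated samples comprised 2 labelled male, 1 labelled female and 1 with no sex given. The samples with no sex given were liver 060, a lamb labelled female in its PVWM sample, and PVWM 061. No group was ventilated without surfactant, so ventilation and surfactant cannot be told apart, and gestational age nearly coincided with ventilation.

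Cells obtain cholesterol by building it from acetyl-CoA, through mevalonate, squalene and lanosterol, or by taking up lipoproteins. When sterol is scarce in the endoplasmic reticulum, SCAP escorts the precursor of the transcription factor SREBP2, encoded by SREBF2, to the Golgi, where it is cleaved and released to switch on the synthesis genes. INSIG proteins hold SCAP back when sterol is plentiful. Oxysterols activate the LXRs, which raise genes that export cholesterol. Liver supplies lipoproteins and bile acids to the body, whereas brain cells make nearly all their own cholesterol, much of it for the myelin of white matter.

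The liver libraries held between 16.1 and 23.2 M counts in all, and the PVWM libraries between 14.9 and 17.5 M counts. The hepatocyte markers ALB, AHSG, TTR, FGB and SERPINC1 summed to between 139836 and 206624 CPM (counts per M counts of the library) in every liver library, and to no more than 153 CPM in PVWM. The 6 oligodendrocyte markers, MBP and MOG among them, summed to between 802 and 13648 CPM in PVWM and to no more than 110 CPM in liver. On the first principal component of all liver genes, surfactant lamb 007 lay between the other 3 surfactant livers and the unventilated livers. In PVWM the oligodendrocyte markers of surfactant lamb 051 stood apart at 13648 CPM, against at most 3021 CPM in any other library.

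Levels below are CPM after TMM scaling within a tissue, and are compared between groups for the same gene only, because the files give no gene lengths. Values of single lambs follow the order of their numbers. These were 031, 048, 050 and 054 with budesonide and 007, 032, 049 and 051 with surfactant. They were 057, 058, 059 and 060 in unventilated livers and 057, 058, 060 and 061 in unventilated PVWM. A change is a log2 difference ± SE, and a gene was called when its edgeR adjusted p, taken by Benjamini-Hochberg over all genes tested in that tissue, was under 0.05. Within a tissue every library came from a separate lamb. In these bulk samples fewer cells of a type and less RNA per cell cannot be told apart.

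In the liver, the genes of sterol synthesis were lower in both ventilated groups than in unventilated lambs. With surfactant alone, 8 of the 32 members rose and 20 fell, while 21.6% of the 16824 liver genes tested rose and 19.5% fell. With surfactant and budesonide, 6 members rose and 18 fell, against 23.3% and 23.7% of all genes. Both comparisons use the same unventilated livers, so they are given side by side. The median log2 change over the 17 synthesis genes was -1.82 with budesonide and -1.72 with surfactant, while the median over all liver genes tested was 0.000668 and -0.02. Of those 17 genes, 15 fell with budesonide and 16 fell with surfactant, and PMVK rose in both comparisons. The ranges of 14 lower genes and of PMVK did not overlap the unventilated range with budesonide, where 25.1% of all liver genes lay wholly below it and 23.7% wholly above. With surfactant this held for 16 lower genes and PMVK, where 18.8% of all genes lay wholly below and 18.7% wholly above. Among the 16 synthesis genes other than PMVK, the median log2 level of a library relative to the unventilated mean lay between -2.25 and -1.90 in budesonide livers, between -2.08 and -1.34 in surfactant livers and between -0.24 and 0.27 in unventilated livers.

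**Figure D1:**
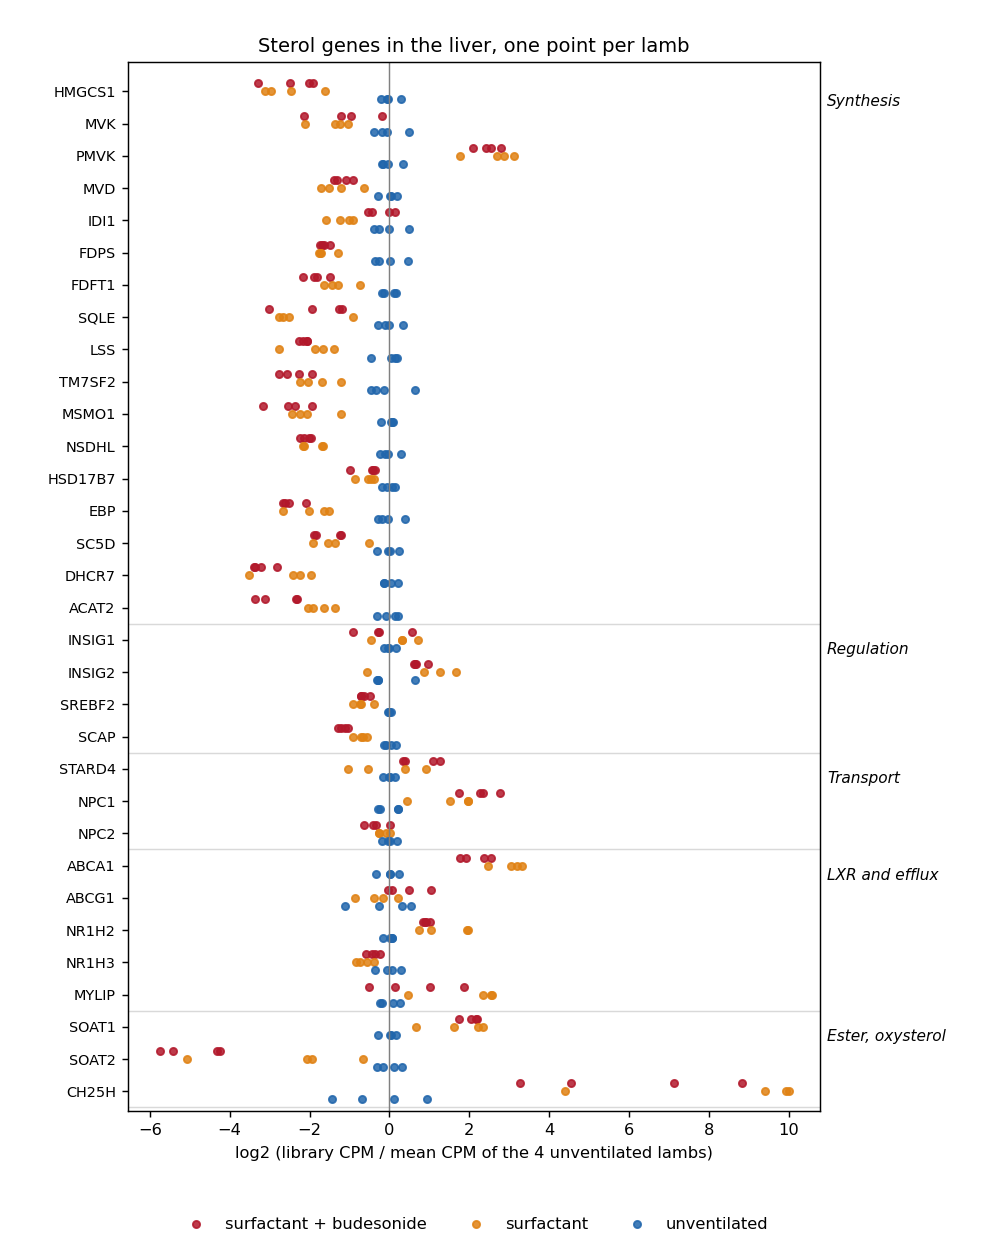
The horizontal axis is the log2 ratio of a library's CPM to the mean CPM of the 4 unventilated livers, with 1 point per lamb for each of the 32 genes, grouped by role. The synthesis genes other than PMVK lie mostly left of 0 in both ventilated groups, SOAT2 lies farthest left in budesonide livers, and CH25H lies farthest right.

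The first steps of the pathway build mevalonate and turn it into isoprenoid units. ACAT2, the cytosolic thiolase that joins acetyl groups, held 17.8, 8.60, 17.5 and 10.2 CPM in budesonide livers, 28.6, 34.3, 21.7 and 23.3 in surfactant livers and 103, 71.3, 97.7 and 82.9 in unventilated livers. HMGCS1, which makes hydroxymethylglutaryl-CoA, held 31.0, 43.1, 46.1 and 17.8 CPM in budesonide livers, 31.4, 19.98, 57.2 and 22.2 in surfactant livers and 211, 150.3, 166 and 169 in unventilated livers. For both genes every ventilated liver was below every unventilated liver. ACAT2 changed by -2.71 ± 0.26 with budesonide and -1.72 ± 0.25 with surfactant (edgeR adjusted p = 1.12e-05 and 0.000277). HMGCS1 changed by -2.33 ± 0.36 and -2.41 ± 0.36 in the same order (edgeR adjusted p = 0.000232 and 0.000338).

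Mevalonate kinase, MVK, phosphorylates mevalonate, and MVD removes its carboxyl group. MVK held 22.1, 5.68, 10.8 and 12.9 CPM in budesonide livers, 9.78, 10.7, 12.2 and 5.76 in surfactant livers and 35.0, 24.1, 22.0 and 19.2 in unventilated livers. MVD held 13.2, 17.4, 12.5 and 15.4 CPM in budesonide livers, 14.1, 9.90, 20.8 and 11.4 in surfactant livers and 37.5, 32.7, 33.5 and 26.8 in unventilated livers. The budesonide range of MVK overlapped the unventilated range through lamb 031, and the other ranges against unventilated livers were separate. The log2 change was -0.96 ± 0.36 for MVK with budesonide and -1.39 ± 0.36 with surfactant (edgeR adjusted p = 0.0411 and 0.00901). The first of these calls was lost when any one of budesonide 048, 050 or 054 or unventilated 057, 058 or 059 was left out (MVK edgeR adjusted p = 0.0543 to 0.125). For MVD the changes were -1.16 ± 0.22 and -1.21 ± 0.22 (edgeR adjusted p = 0.00107 and 0.00117).

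IDI1, the isomerase that makes the second isoprenoid unit, did not follow the rest in budesonide livers. It held 153, 169.8, 114 and 107 CPM in budesonide livers, 64.8, 76.2, 81.5 and 51.7 in surfactant livers and 215, 154, 119 and 128 in unventilated livers. All 4 surfactant livers were below all others, and the budesonide and unventilated ranges overlapped. The change against unventilated livers was -0.18 ± 0.22 with budesonide and -1.17 ± 0.23 with surfactant (edgeR adjusted p = 0.535 and 0.00167). FDPS, which joins isoprenoid units into farnesyl diphosphate, held 3.26, 3.38, 3.49 and 3.86 CPM in budesonide livers, 3.28, 3.24, 4.44 and 3.19 in surfactant livers and 15.03, 10.9, 8.41 and 9.06 in unventilated livers. FDPS fell by similar amounts, -1.63 ± 0.22 with budesonide and -1.61 ± 0.22 with surfactant (edgeR adjusted p = 8.83e-05 and 0.000174).

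PMVK, which adds the second phosphate to mevalonate, was the 1 synthesis gene that rose. It held 92.1, 110.3, 84.1 and 67.1 CPM in budesonide livers, 54.0, 115, 102 and 137 in surfactant livers and 14.1, 13.9, 19.9 and 15.3 in unventilated livers, with every ventilated liver above every unventilated one. The change was 2.49 ± 0.27 with budesonide and 2.69 ± 0.27 with surfactant (edgeR adjusted p = 2.17e-05 and 2.46e-05). In the RefSeq gene table, PMVK overlaps a pseudogene and stands next to KCNN3 and PBXIP1. These neighbours were looked up after the PMVK values had been seen. KCNN3, a potassium channel gene, also rose, by 0.84 ± 0.32 with budesonide and 2.05 ± 0.32 with surfactant (edgeR adjusted p = 0.0445 and 0.000514). PBXIP1 fell by 0.72 ± 0.15 with budesonide and had a change of -0.22 ± 0.14 with surfactant (edgeR adjusted p = 0.00148 and 0.238). Whether counts of PMVK include reads of other genes was not tested. In the same table ACAT2, IDI1, FDFT1, NSDHL and EBP each overlap a protein-coding neighbour, TCP1, WDR37, CTSB, CETN2 and PORCN in that order. SREBF2 and NPC1 each overlap a protein-coding locus without a symbol. NSDHL also overlaps a pseudogene, and FDPS, FDFT1, SCAP, ABCG1 and SOAT2 each overlap a long non-coding RNA gene. SCAP and NPC2 each overlap a small nuclear RNA gene. Whether reads were counted by strand is not given in the sources used here, so reads of such pairs may not have been told apart.

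The middle steps make squalene and close it into lanosterol. FDFT1, squalene synthase, held 16.9, 27.2, 20.7 and 21.7 CPM in budesonide livers, 31.6, 24.5, 46.0 and 28.4 in surfactant livers and 85.5, 70.2, 83.5 and 67.2 in unventilated livers. SQLE, squalene epoxidase, held 12.6, 20.1, 21.2 and 5.98 CPM in budesonide livers, 7.62, 8.40, 25.3 and 7.05 in surfactant livers and 60.9, 44.2, 48.0 and 39.1 in unventilated livers. LSS, lanosterol synthase, held 20.3, 20.4, 18.7 and 17.6 CPM in budesonide livers, 23.2, 26.6, 32.4 and 12.4 in surfactant livers and 93.8, 87.4, 96.1 and 61.3 in unventilated livers. All 3 genes were lower in every ventilated liver than in any unventilated liver, and SQLE in surfactant lamb 049 stood well above the other 3 surfactant livers. FDFT1 changed by -1.82 ± 0.21 with budesonide and -1.23 ± 0.21 with surfactant (edgeR adjusted p = 3.46e-05 and 0.000703). SQLE changed by -1.68 ± 0.45 and -1.99 ± 0.45 (edgeR adjusted p = 0.00824 and 0.0043). LSS changed by -2.14 ± 0.25 and -1.84 ± 0.25 (edgeR adjusted p = 4.02e-05 and 0.000183).

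The late steps turn lanosterol into cholesterol by removing methyl groups and moving double bonds. TM7SF2, a sterol reductase, held 7.33, 4.13, 4.71 and 5.85 CPM in budesonide livers, 5.95, 12.1, 8.72 and 6.79 in surfactant livers and 43.8, 20.3, 25.3 and 22.2 in unventilated livers. MSMO1, a sterol methyl oxidase, held 33.4, 37.8, 50.4 and 21.5 CPM in budesonide livers, 46.2, 35.6, 83.9 and 41.2 in surfactant livers and 205, 168, 199 and 205 in unventilated livers. NSDHL, which acts with it in demethylation, held 11.9, 12.5, 10.997 and 10.3 CPM in budesonide livers, 14.95, 10.98, 15.2 and 10.8 in surfactant livers and 59.8, 45.4, 47.5 and 41.5 in unventilated livers. None of these ventilated ranges reached the unventilated range. TM7SF2 changed by -2.34 ± 0.30 with budesonide and -1.73 ± 0.30 with surfactant (edgeR adjusted p = 7.59e-05 and 0.0008). MSMO1 changed by -2.44 ± 0.29 and -1.91 ± 0.29 (edgeR adjusted p = 4.8e-05 and 0.000376). NSDHL changed by -2.09 ± 0.17 with budesonide (edgeR adjusted p = 5.03e-06).

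HSD17B7, a ketosteroid reductase of the same demethylation step, had the smallest of the called changes in synthesis. It held 7.97, 8.43, 8.15 and 5.40 CPM in budesonide livers, 7.45, 5.88, 7.77 and 8.28 in surfactant livers and 11.9, 10.4, 9.47 and 11.3 in unventilated livers. The changes of -0.52 ± 0.18 with budesonide and -0.55 ± 0.18 with surfactant were called (edgeR adjusted p = 0.0333 and 0.0299), although the ranges lay close together. For HSD17B7 the first call was lost without any one of budesonide 031 or 054 or unventilated 057, 058 or 060 (edgeR adjusted p = 0.0538 to 0.0909). The second was lost without any one of surfactant 032 or unventilated 057, 058 or 060 (HSD17B7 edgeR adjusted p = 0.0501 to 0.0825).

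EBP, SC5D and DHCR7 set the last double bonds of the sterol rings, and DHCR7 reduces the immediate precursor to cholesterol. EBP, a sterol isomerase, held 17.1, 15.99, 23.2 and 15.6 CPM in budesonide livers, 34.6, 24.4, 31.5 and 15.4 in surfactant livers and 129, 87.2, 96.6 and 80.7 in unventilated livers. SC5D, a sterol desaturase, held 73.7, 48.8, 75.9 and 46.9 CPM in budesonide livers, 122, 68.2, 60.3 and 46.2 in surfactant livers and 208, 142, 171 and 178 in unventilated livers. DHCR7 held 4.19, 3.73, 3.78 and 5.59 CPM in budesonide livers, 8.23, 7.32, 10.1 and 3.40 in surfactant livers and 39.8, 35.5, 35.3 and 45.8 in unventilated livers. The ventilated and unventilated ranges were separate for all 3, and surfactant lamb 051 was the lowest surfactant liver for each of them. EBP changed by -2.45 ± 0.26 with budesonide and -1.89 ± 0.25 with surfactant (edgeR adjusted p = 1.87e-05 and 0.000159). SC5D changed by -1.51 ± 0.28 and -1.23 ± 0.28 (edgeR adjusted p = 0.000888 and 0.00403). DHCR7 changed by -3.18 ± 0.29 with budesonide (edgeR adjusted p = 8.36e-06), which was the most negative log2 change of the 17 synthesis genes.

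Of the regulators in liver, SREBF2 and SCAP fell in both ventilated groups, and neither INSIG gene was called lower. SREBF2 held 170.2, 145, 152 and 145 CPM in budesonide livers, 144, 182, 146 and 126 in surfactant livers and 236, 233, 239 and 246 in unventilated livers. SCAP held 13.0, 12.5, 14.0 and 14.9 CPM in budesonide livers, 18.4, 19.3, 20.7 and 16.1 in surfactant livers and 28.6, 27.6, 34.0 and 30.9 in unventilated livers. Neither gene overlapped between ventilated and unventilated livers. SREBF2 changed by -0.64 ± 0.13 with budesonide and -0.67 ± 0.13 with surfactant (edgeR adjusted p = 0.00207 and 0.00204). SCAP changed by -1.16 ± 0.14 and -0.70 ± 0.13 (edgeR adjusted p = 3.88e-05 and 0.00154).

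INSIG1, itself a target of SREBP2, held 58.7, 59.7, 107 and 38.5 CPM in budesonide livers, 118, 52.0, 89.4 and 89.4 in surfactant livers and 80.4, 70.1, 71.2 and 66.0 in unventilated livers. These ranges overlapped, and the changes of -0.12 ± 0.29 and 0.28 ± 0.29 were not called (edgeR adjusted p = 0.746 and 0.465). INSIG2, the second retention protein, held 81.2, 79.4, 80.2 and 101 CPM in budesonide livers, 164, 94.2, 35.2 and 125 in surfactant livers and 42.2, 41.9, 80.4 and 42.0 in unventilated livers. Unventilated lamb 059 reached the level of the ventilated livers and surfactant lamb 049 was below all unventilated livers. INSIG2 was called higher with surfactant at 1.02 ± 0.37 (edgeR adjusted p = 0.0423), and its change of 0.73 ± 0.37 with budesonide was not called (edgeR adjusted p = 0.121). The call for INSIG2 was lost without any one of surfactant 007, 032 or 051, budesonide 031, 048 or 050, or unventilated 057, 058 or 060 (edgeR adjusted p = 0.0511 to 0.116). The uncalled INSIG2 change with budesonide was called without surfactant 049 or unventilated 059 (edgeR adjusted p = 0.0263 and 0.0459).

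NPC1 and NPC2 hand cholesterol out of lysosomes, and STARD4 carries it through the cytosol. NPC1 held 35.0, 33.2, 22.98 and 47.6 CPM in budesonide livers, 9.45, 27.2, 19.8 and 27.3 in surfactant livers and 8.04, 8.08, 5.88 and 5.67 in unventilated livers. It rose by 2.32 ± 0.32 with budesonide and 1.60 ± 0.32 with surfactant (edgeR adjusted p = 0.000122 and 0.00197), and surfactant lamb 007 stood closest to the unventilated range. NPC2 held 54.5, 44.3, 52.1 and 69.6 CPM in budesonide livers, 64.6, 57.8, 70.0 and 57.7 in surfactant livers and 70.0, 67.0, 78.1 and 60.5 in unventilated livers. STARD4 held 133, 82.7, 152 and 79.7 CPM in budesonide livers, 81.8, 43.1, 30.6 and 118 in surfactant livers and 62.5, 56.2, 68.9 and 63.5 in unventilated livers. Neither gene was called: NPC2 changed by -0.32 ± 0.15 and -0.14 ± 0.15 (edgeR adjusted p = 0.101 and 0.489), and STARD4 by 0.83 ± 0.36 and 0.12 ± 0.36 (edgeR adjusted p = 0.0722 and 0.803). All 4 budesonide livers lay above the unventilated range of STARD4, and its change with budesonide was called without surfactant 049 or 051 (edgeR adjusted p = 0.0386 and 0.0385). NPC2 with budesonide was called without budesonide 054 (edgeR adjusted p = 0.0251).

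In the LXR and efflux arm, ABCA1 and NR1H2 rose in both ventilated groups. ABCA1, which passes cholesterol to lipid-poor apolipoproteins, held 317, 438, 287 and 487 CPM in budesonide livers, 463, 690.2, 776 and 842 in surfactant livers and 85.3, 66.5, 85.7 and 99.1 in unventilated livers. Every ventilated liver held more than every unventilated liver, and ABCA1 rose by 2.18 ± 0.23 with budesonide and 3.04 ± 0.24 with surfactant (edgeR adjusted p = 2.14e-05 and 6.09e-06). NR1H2, which encodes the widely expressed receptor LXR beta, held 38.9, 38.1, 37.1 and 41.5 CPM in budesonide livers, 34.5, 42.7, 79.2 and 81.0 in surfactant livers and 20.8, 18.6, 21.8 and 21.5 in unventilated livers. Its ventilated ranges lay above the unventilated range, with changes of 0.91 ± 0.24 and 1.52 ± 0.24 (edgeR adjusted p = 0.00758 and 0.000516).

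NR1H3, which encodes LXR alpha, moved the other way. It held 32.5, 41.5, 35.9 and 38.3 CPM in budesonide livers, 37.1, 33.1, 29.5 and 27.5 in surfactant livers and 50.9, 46.9, 60.0 and 37.7 in unventilated livers. The surfactant range lay just below the unventilated one, and the budesonide range overlapped it. NR1H3 fell with surfactant, with a log2 change of -0.62 ± 0.16, and its change of -0.40 ± 0.16 with budesonide was not called (edgeR adjusted p = 0.00917 and 0.0581). That change of NR1H3 with budesonide was called without any one of surfactant 007, 032, 049 or 051 or unventilated 060 (edgeR adjusted p = 0.0259 to 0.0475). ABCG1, which exports cholesterol to mature lipoproteins, held 21.0, 27.9, 19.4 and 41.3 CPM in budesonide livers, 10.95, 23.2, 15.3 and 17.9 in surfactant livers and 16.7, 28.9, 9.17 and 25.0 in unventilated livers. The 3 ranges overlapped, and ABCG1 changed by 0.45 ± 0.35 and -0.25 ± 0.35, neither called (edgeR adjusted p = 0.306 and 0.601).

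MYLIP, an LXR-induced ubiquitin ligase that marks lipoprotein receptors for degradation, held 100.1, 54.2, 34.5 and 181 CPM in budesonide livers, 68.3, 293, 249.8 and 289.7 in surfactant livers and 43.7, 52.8, 41.9 and 59.2 in unventilated livers. All surfactant livers were above the unventilated range, with lamb 007 close to it. The budesonide livers lay on both sides of the unventilated range. MYLIP rose with surfactant by 2.19 ± 0.51 (edgeR adjusted p = 0.00483). The rise was 2.49 without lamb 007. With budesonide its change of 0.90 ± 0.49 was not called (edgeR adjusted p = 0.147).

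CH25H, which hydroxylates cholesterol to an oxysterol, spanned the widest range of all members. It held 34.3, 206, 14.2 and 676 CPM in budesonide livers, 31.0, 1003, 1445 and 1510.0 in surfactant livers and 0.915, 0.548, 2.82 and 1.61 in unventilated livers. Every ventilated liver was above every unventilated liver, but the ventilated livers themselves differed widely: lambs 031 and 050 with budesonide and 007 with surfactant held under 35 CPM. CH25H rose by 7.32 ± 1.44 with budesonide and 9.42 ± 1.56 with surfactant (edgeR adjusted p = 0.00136 and 0.000698). Without lamb 007 the CH25H change with surfactant was 9.83.

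The esterifying enzymes SOAT1 and SOAT2 moved in opposite directions. SOAT1, found in most cell types, held 40.9, 54.5, 50.3 and 56.1 CPM in budesonide livers, 19.5, 37.3, 57.3 and 61.5 in surfactant livers and 12.4, 10.04, 12.6 and 13.8 in unventilated livers. SOAT2, the form of hepatocytes and enterocytes, held 7.33, 2.58, 6.98 and 3.22 CPM in budesonide livers, 87.1, 36.2, 33.2 and 4.12 in surfactant livers and 171, 149, 123 and 111 in unventilated livers. All ventilated livers were above the unventilated range for SOAT1 and below it for SOAT2. SOAT1 rose by 2.05 ± 0.29 with budesonide and 1.85 ± 0.29 with surfactant (edgeR adjusted p = 0.000152 and 0.000508). SOAT2 changed by -4.78 ± 0.71 and -1.79 ± 0.62 (edgeR adjusted p = 0.0002 and 0.0346). The SOAT2 call with surfactant was lost without any one of surfactant 032 or 049 or of the 4 unventilated livers (edgeR adjusted p = 0.0503 to 0.076).

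With gestational age as a covariate, 4 members rose and 13 fell with surfactant, while 5.24% of all liver genes rose and 3.07% fell. Synthesis then counted 13 genes lower and PMVK higher, with MVK, HSD17B7 and SC5D not called (edgeR adjusted p = 0.0797, 0.089 and 0.135). ABCA1, CH25H and INSIG2 remained called higher (edgeR adjusted p = 0.000859, 0.0173 and 0.0419). The other 8 calls were lost, those of SREBF2, SCAP, NPC1, NR1H2, NR1H3, MYLIP, SOAT1 and SOAT2, with edgeR adjusted p from 0.0595 to 0.261. With budesonide and the same covariate 5 members rose and 15 fell, beside 8.91% and 8.67% of all genes. SREBF2, SCAP, NPC1, SOAT1 and SOAT2 remained called, and the calls of MVK, HSD17B7, SC5D and NR1H2 were lost.

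Markers of other cell types moved in the same livers. All 4 neutrophil markers tested rose with surfactant against no ventilation, and they summed to 73.1 to 114 CPM in budesonide livers, 80.7 to 254 CPM in surfactant livers and 22.9 to 68.8 CPM in unventilated livers. Of 4 endothelial markers, PECAM1 and CDH5 rose with surfactant, and the list summed to 208 to 238 CPM in budesonide livers, 331 to 410 CPM in surfactant livers and 249 to 312 CPM in unventilated livers. Hepatocyte markers summed to 139836 to 183983 CPM with budesonide, 180448 to 206624 CPM with surfactant and 153850 to 202991 CPM without ventilation. Of those 5 markers FGB rose with surfactant, and with budesonide FGB rose while ALB, TTR and SERPINC1 fell against no ventilation. In that budesonide comparison 3 of 4 neutrophil and 3 of 4 stellate markers also rose. KDR, 1 of 4 endothelial markers, and CSF1R, 1 of 5 macrophage markers, fell (-1.39 ± 0.16 and -1.05 ± 0.22, edgeR adjusted p = 4.15e-05 and 0.00216). The other markers of these 2 lists were not called, and 3 of the 5 macrophage markers had a log2 change above 0. With surfactant against no ventilation, 1 of the 5 macrophage markers rose and none fell. The stellate markers summed to 938 to 1469 CPM with budesonide, 935 to 1335 CPM with surfactant and 567 to 1081 CPM without ventilation. PDGFRA and CSPG4, which mark oligodendrocyte precursors in brain, rose with surfactant in liver by 2.13 ± 0.26 and 0.93 ± 0.22 (edgeR adjusted p = 9.17e-05 and 0.00522). Both were also called higher with budesonide against no ventilation, by 1.75 and 0.82. The part of these cell types in the sterol gene changes was not tested.

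Between the ventilated groups, the livers given budesonide differed from those given surfactant alone in a few sterol genes. IDI1 rose, and ACAT2, SCAP, ABCA1 and SOAT2 fell. That is 1 of 32 members higher and 4 lower, counts not far from the 4.01% and 7.85% of all genes tested. The remaining 27 members were not called, and the median log2 change over the 32 was -0.24 against -0.01 over all genes. SOAT2 held 5.03 ± 2.48 CPM with budesonide and 40.2 ± 34.5 CPM with surfactant (mean ± SD, n = 4 each). Its change was -2.99 ± 0.66 (edgeR adjusted p = 0.0144), and the groups overlapped because surfactant lamb 051 held 4.12 CPM, within the budesonide range of 2.58 to 7.33 CPM. Of the 5 calls, SOAT2 alone held under all 18 alternative settings, with an edgeR adjusted p for SOAT2 of at most 0.0498, reached when both ventilated groups were fitted alone.

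**Figure D2:**
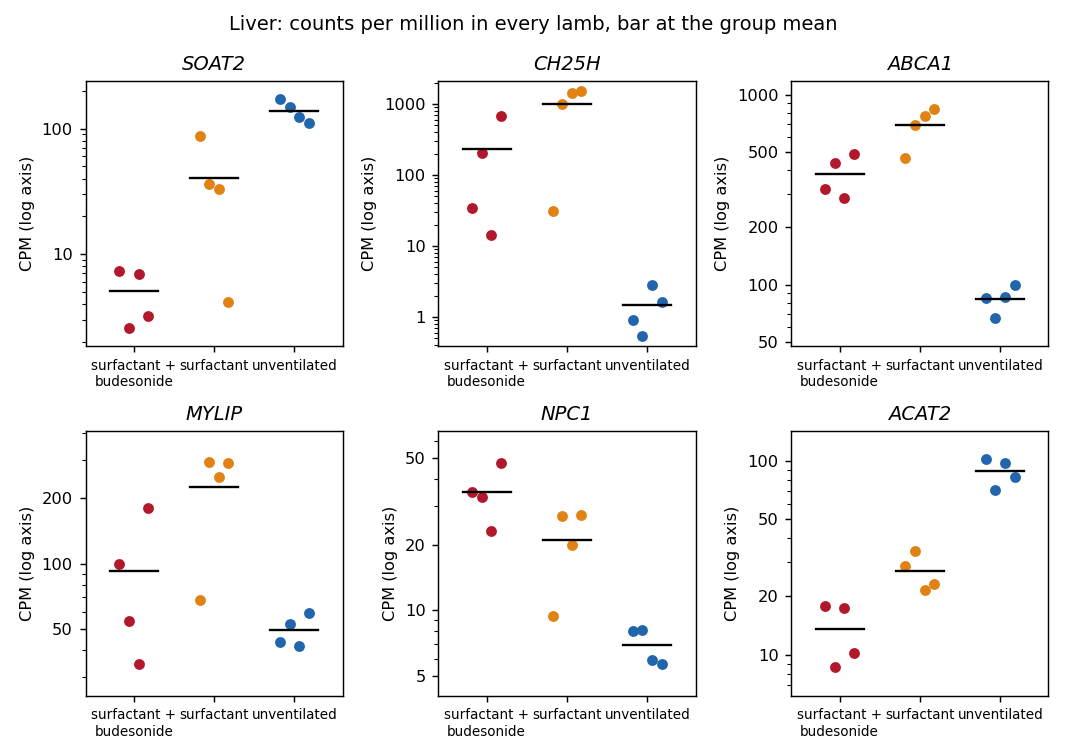
CPM on a logarithmic axis of 6 genes in the liver, with 1 point per lamb and a bar at the group mean, for budesonide, surfactant and unventilated lambs from left to right. SOAT2 in surfactant lamb 051 sits at 4.12 CPM among the budesonide livers, and CH25H and MYLIP in surfactant lamb 007 sit at 31.0 and 68.3 CPM, below the other surfactant livers.

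IDI1 held 107 to 169.8 CPM with budesonide and 51.7 to 81.5 CPM with surfactant, with no overlap, and rose by 0.99 ± 0.23 (edgeR adjusted p = 0.0159). The IDI1 call was lost without budesonide 048 (edgeR adjusted p = 0.0511). ACAT2 held 8.60 to 17.8 CPM with budesonide and 21.7 to 34.3 CPM with surfactant, also with no overlap, a change of -0.995 ± 0.25 (edgeR adjusted p = 0.0226). Its call was lost without any one of surfactant 032 or budesonide 048 or 054 (ACAT2 edgeR adjusted p = 0.0511 to 0.0589). These 2 genes were the only synthesis genes called between the ventilated groups, out of 17 tested.

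SCAP held 12.5 to 14.9 CPM with budesonide and 16.1 to 20.7 CPM with surfactant, and changed by -0.45 ± 0.13 (edgeR adjusted p = 0.0463). The SCAP call was lost without any one of 9 of the 12 livers, all but surfactant 007 and 051 and budesonide 054, with edgeR adjusted p of 0.0521 to 0.12. ABCA1 held 287 to 487 CPM with budesonide and 463 to 842 CPM with surfactant, and the ranges overlapped through lamb 007. ABCA1 was 1.81-fold lower in the budesonide livers (-0.86 ± 0.22, edgeR adjusted p = 0.0282). That call was lost without any one of surfactant 032 or 049 or budesonide 031, 048 or 050 (ABCA1 edgeR adjusted p = 0.0515 to 0.0855). When both ventilated groups were fitted alone, ACAT2, SCAP and ABCA1 lost their calls (edgeR adjusted p = 0.063, 0.122 and 0.0709), as did SCAP and ABCA1 with sex as a covariate (0.0859 and 0.0543).

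The other members of these roles were not called between the ventilated livers. MYLIP averaged 92.5 ± 65.2 CPM with budesonide and 225 ± 106 CPM with surfactant, a change of -1.28 ± 0.49 (edgeR adjusted p = 0.105). Without surfactant lamb 007 the MYLIP change was -1.58 and passed the threshold (edgeR adjusted p = 0.0266), and it also passed without budesonide 054 (edgeR adjusted p = 0.0319). NR1H2 changed by -0.61 ± 0.24 (edgeR adjusted p = 0.109), and passed only without lamb 007 (edgeR adjusted p = 0.0179). CH25H averaged 233 ± 308 CPM with budesonide and 997 ± 682 CPM with surfactant, and its change of -2.10 ± 1.11 was within the wide spread of both groups (edgeR adjusted p = 0.226). Among the budesonide livers, lamb 054 held the most and lamb 050 the least of CH25H, MYLIP, ABCA1, NPC1 and NR1H2, a shared order seen after the values were known.

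INSIG1, INSIG2 and SREBF2 changed by -0.40 ± 0.29, -0.29 ± 0.37 and 0.04 ± 0.13 between the ventilated livers (edgeR adjusted p = 0.372, 0.625 and 0.881). NPC1, STARD4 and NPC2 changed by 0.73 ± 0.31, 0.71 ± 0.36 and -0.18 ± 0.15 (edgeR adjusted p = 0.133, 0.204 and 0.453). ABCG1, NR1H3 and SOAT1 changed by 0.70 ± 0.35, 0.22 ± 0.16 and 0.20 ± 0.28 (edgeR adjusted p = 0.203, 0.383 and 0.662). All of these ranges overlapped. Without surfactant 051, which held the least DHCR7 and EBP of the surfactant livers, DHCR7, EBP and STARD4 passed the threshold (edgeR adjusted p = 0.00651, 0.0245 and 0.0363). Of the endothelial markers, PECAM1, CDH5 and KDR fell with budesonide, with log2 changes of -0.95 ± 0.18, -0.54 ± 0.15 and -1.03 ± 0.16 (edgeR adjusted p = 0.00743, 0.0396 and 0.00299). Their part in the sterol gene differences was not tested.

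In the white matter, few sterol genes differed between groups. The 3 comparisons there share their groups. Budesonide against surfactant gave 1 member lower, INSIG1, and none higher, beside 0.387% and 0.591% of the 18616 genes tested. Surfactant against no ventilation gave 1 member higher, ABCG1, and none lower, beside 1.35% and 0.698% of all genes. Budesonide against no ventilation gave 2 members higher, ABCG1 and NR1H3, and 1 lower, FDFT1, beside 4.35% and 3.71% of all genes. At an unadjusted edgeR p under 0.05, 1 member was higher and 6 were lower with budesonide against surfactant, and 5 were higher and 2 lower with surfactant against no ventilation. In the same 2 comparisons, 2217 and 2742 of all 18616 genes passed that threshold in either direction. DESeq2 gave 3 members lower and none higher in the first of these and 2 higher and none lower in the second. Its counts over all genes are given with the alternatives below. Across the 17 synthesis genes the median log2 change was -0.13, -0.06 and -0.20 in those 3 comparisons, against -0.01, 0.02 and 0.01 over all genes tested.

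**Figure D3:**
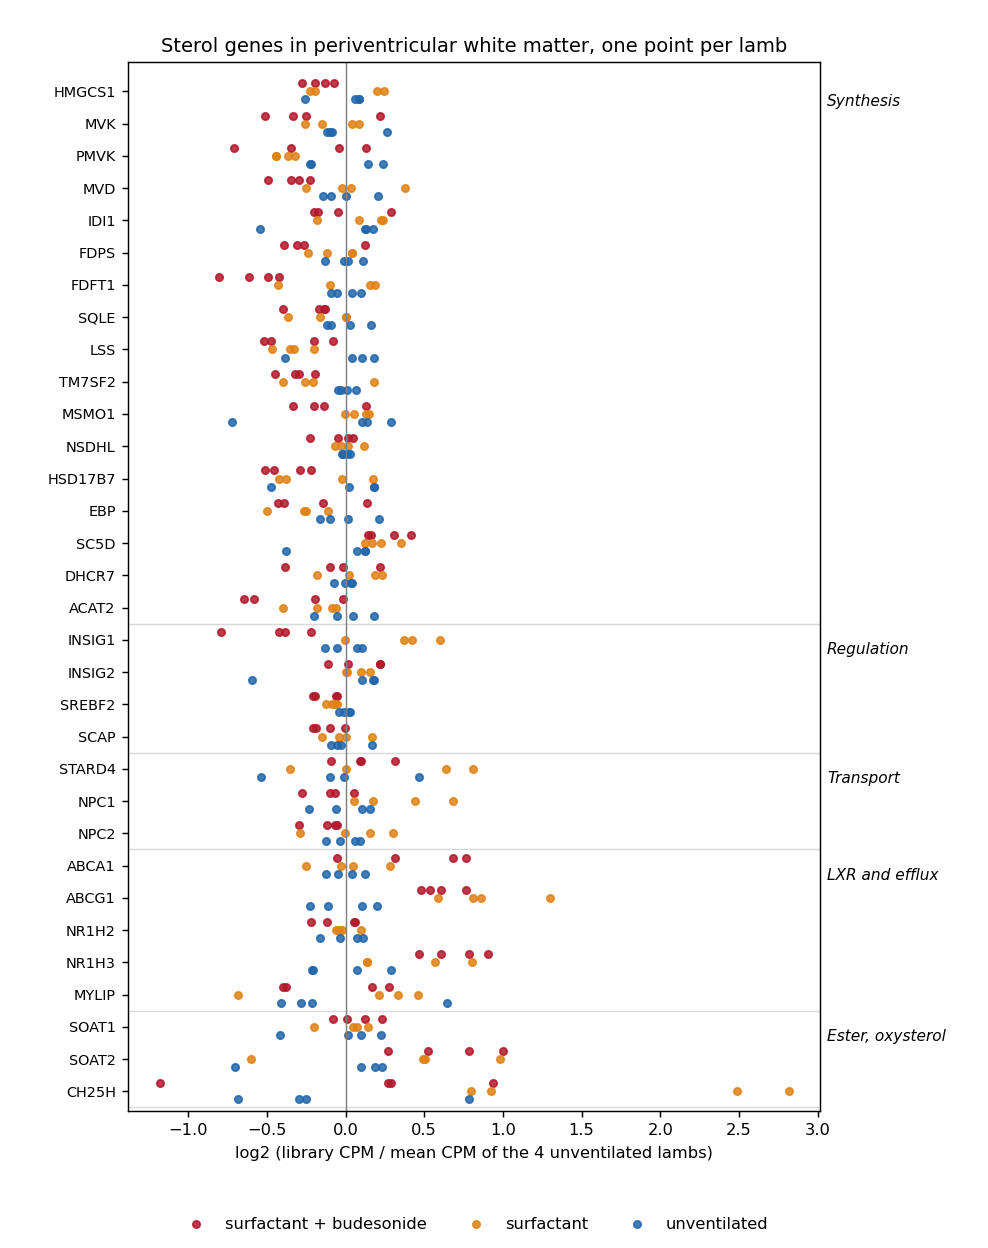
The horizontal axis is the log2 ratio of a library's CPM to the mean CPM of the 4 unventilated PVWM samples, with 1 point per lamb for each of the 32 genes, on a narrower scale than for liver. Most points lie within 0.5 of 0, and the surfactant points of CH25H and ABCG1 lie to the right of the unventilated ones.

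INSIG1 in PVWM held 39.0, 29.4, 37.9 and 43.7 CPM with budesonide, 50.8, 77.2, 65.8 and 68.2 with surfactant and 49.0, 54.8, 53.5 and 46.6 without ventilation. All 4 budesonide samples were below all samples of the other groups. INSIG1 changed by -0.80 ± 0.14 (edgeR adjusted p = 0.0173) between budesonide and surfactant lambs, and by -0.44 ± 0.14 between budesonide and unventilated lambs, which was not called (edgeR adjusted p = 0.0679). The first call was lost without budesonide 050 (INSIG1 edgeR adjusted p = 0.0599) and when the 2 groups were fitted alone (adjusted p = 0.0625). The second passed without surfactant 007, which entered that fit through the shared spread (INSIG1 edgeR adjusted p = 0.0324), and in DESeq2 (adjusted p = 0.0336). INSIG2, SREBF2 and SCAP were not called in any PVWM comparison, with log2 changes between -0.13 (SREBF2, budesonide against unventilated) and 0.09 (INSIG2, the same comparison).

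INSIG2 held 31.8, 36.6, 29.2 and 36.5 CPM in PVWM with budesonide, 35.0, 33.6, 31.5 and 31.7 with surfactant and 20.9, 35.4, 35.7 and 33.8 without ventilation. SREBF2 held 284, 287, 317 and 315 CPM with budesonide, 309.5, 301, 313 and 317 with surfactant and 334, 336, 319 and 326 without ventilation. SCAP held 81.8, 76.2, 87.5 and 77.0 CPM with budesonide, 85.1, 98.5, 87.9 and 79.2 with surfactant and 98.5, 84.4, 82.3 and 85.9 without ventilation. The ranges of INSIG2 and SCAP overlapped across the groups. SREBF2 was lower in every ventilated sample than in any unventilated one. Its changes of -0.13 ± 0.06 with budesonide and -0.08 ± 0.06 with surfactant were not called (edgeR adjusted p = 0.256 and 0.591).

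ABCG1 was the member called against no ventilation in both ventilated groups. It held 60.3, 63.4, 58.1 and 70.9 CPM with budesonide, 62.5, 72.9, 102 and 75.6 with surfactant and 38.5, 47.8, 44.8 and 35.5 without ventilation, so that every ventilated sample was above every unventilated one. ABCG1 rose by 0.60 ± 0.14 with budesonide and 0.91 ± 0.14 with surfactant (edgeR adjusted p = 0.02 and 0.00588). With gestational age as a covariate neither call held (ABCG1 edgeR adjusted p = 0.355 and 0.336). Both were also lost once sex entered the edgeR fit (adjusted p = 0.146 and 0.0795). The call with budesonide was also lost without any one of budesonide 054 or unventilated 057 or 061 (ABCG1 edgeR adjusted p = 0.0557 to 0.0667).

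NR1H3 in PVWM held 14.0, 15.5, 17.4 and 19.0 CPM with budesonide, 11.2, 11.1, 15.03 and 17.7 with surfactant and 12.4, 8.79, 10.7 and 8.73 without ventilation. The budesonide range was above the unventilated range, and the surfactant range overlapped both. It rose by 0.70 ± 0.17 (edgeR adjusted p = 0.027) with budesonide against no ventilation, while its change of 0.44 ± 0.18 with surfactant was not called (edgeR adjusted p = 0.259). The NR1H3 call was lost without any one of budesonide 050 or 054 or unventilated 058, 060 or 061 (edgeR adjusted p = 0.0587 to 0.0907) and with gestational age or sex as a covariate (adjusted p = 0.354 and 0.171).

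ABCA1 held 137, 129.5, 77.8 and 101 CPM in PVWM with budesonide, 83.5, 67.8, 98.2 and 79.3 with surfactant and 74.2, 87.9, 78.0 and 83.04 without ventilation. Budesonide lambs 031, 048 and 054 were above every other sample and lamb 050 was not. ABCA1 changed by 0.44 ± 0.16 against surfactant and 0.46 ± 0.16 against no ventilation, neither called (edgeR adjusted p = 0.272 and 0.105), although the second passed without lamb 050 (ABCA1 edgeR adjusted p = 0.0204). NR1H2 held 21.4, 22.9, 25.9 and 26.0 CPM with budesonide, 24.3, 23.9, 24.5 and 26.6 with surfactant and 26.9, 26.2, 24.4 and 22.3 without ventilation. MYLIP held 18.2, 17.96, 28.7 and 26.7 CPM with budesonide, 14.7, 27.4, 32.5 and 29.8 with surfactant and 17.8, 37.1, 20.4 and 19.4 without ventilation. NR1H2 and MYLIP overlapped across all 3 groups, and none of their changes was called (edgeR adjusted p of at least 0.803 for NR1H2 and 0.866 for MYLIP).

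**Figure D4:**
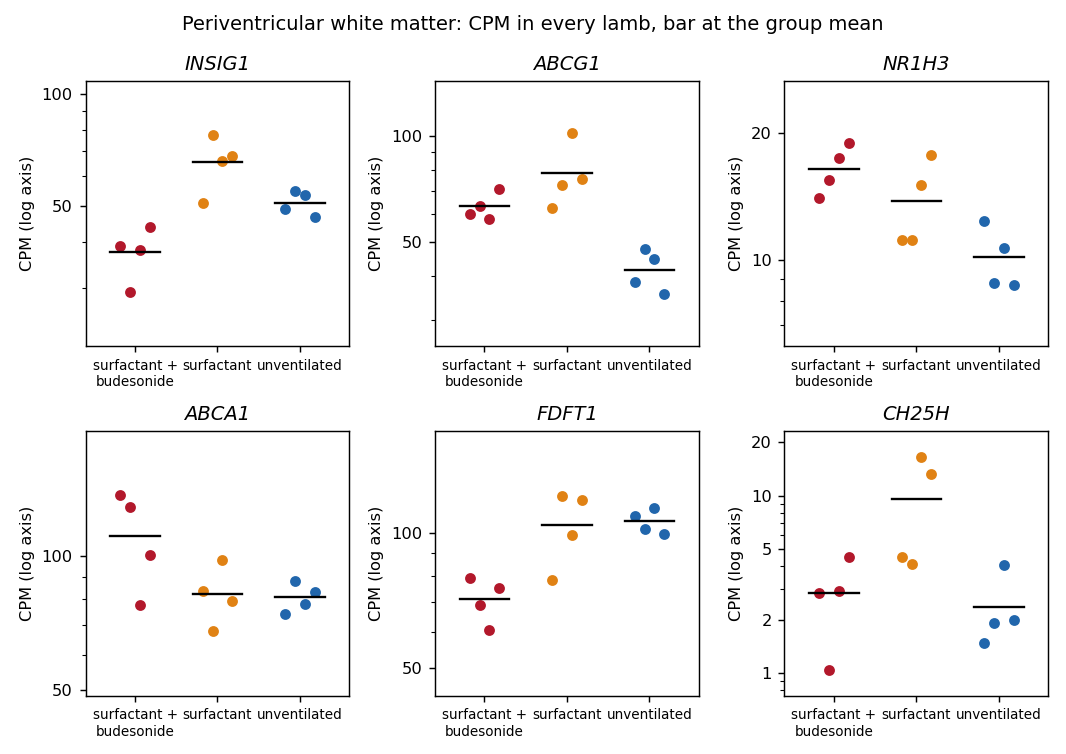
CPM on a logarithmic axis of 6 genes in PVWM, with 1 point per lamb and a bar at the group mean, for budesonide, surfactant and unventilated lambs from left to right. The budesonide points of INSIG1 lie below those of both other groups, and the unventilated points of ABCG1 lie below those of both ventilated groups.

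CH25H was uneven among the surfactant PVWM samples. It held 2.85, 1.04, 2.89 and 4.53 CPM with budesonide, 4.49, 4.10, 16.6 and 13.2 with surfactant and 1.47, 1.93, 4.07 and 1.98 without ventilation. The surfactant range lay just above the unventilated one, with lambs 049 and 051 far above 007 and 032. Its change of 2.02 ± 0.53 with surfactant was not called by edgeR (adjusted p = 0.072). It passed in edgeR without surfactant 007 or 032 (CH25H edgeR adjusted p = 0.0409 and 0.0475) and in DESeq2 (adjusted p = 0.00366). Between budesonide and surfactant lambs CH25H changed by -1.77 ± 0.52, which edgeR did not call and DESeq2 did (adjusted p = 0.15 and 0.021).

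SOAT1 held 22.8, 26.4, 24.4 and 28.4 CPM in PVWM with budesonide, 26.7, 25.4, 21.0 and 25.0 with surfactant and 18.1, 28.3, 24.4 and 25.9 without ventilation. SOAT2 held 1.80, 2.09, 1.501 and 1.26 CPM with budesonide, 2.06, 1.47, 1.48 and 0.687 with surfactant and 1.23, 0.642, 1.19 and 1.11 without ventilation. Neither was called in any PVWM comparison, although every budesonide sample of SOAT2 was above every unventilated one. The lowest edgeR adjusted p was 0.792 for SOAT1 and 0.269 for SOAT2, both for budesonide against no ventilation.

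NPC1 held 22.7, 19.6, 22.2 and 24.7 CPM in PVWM with budesonide, 26.8, 32.3, 24.6 and 38.1 with surfactant and 25.5, 22.8, 20.2 and 26.5 without ventilation. NPC2 held 36.5, 36.1, 34.9 and 30.9 CPM with budesonide, 42.2, 30.9, 46.7 and 37.8 with surfactant and 40.3, 37.0, 34.7 and 39.4 without ventilation. STARD4 held 60.8, 45.8, 52.1 and 52.3 CPM with budesonide, 38.2, 76.1, 85.5 and 48.9 with surfactant and 33.7, 67.6, 45.6 and 48.5 without ventilation. All 3 transport genes overlapped between every pair of groups and none was called, but NPC1 with budesonide and with surfactant met only at 24.7 CPM in budesonide lamb 054 and 24.6 CPM in surfactant lamb 049. The lowest edgeR adjusted p among them was 0.179, for NPC1 with budesonide against surfactant (-0.45 ± 0.14).

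Among the synthesis genes of PVWM, FDFT1 was the only one called, in 1 comparison. It held 79.0, 69.1, 60.7 and 75.3 CPM with budesonide, 78.5, 120.3, 99.0 and 118 with surfactant and 109, 102, 114 and 99.1 without ventilation. Every budesonide sample was below every unventilated one, and budesonide lamb 031 overlapped surfactant lamb 007. FDFT1 changed by -0.58 ± 0.13 (edgeR adjusted p = 0.0142) against no ventilation and by -0.55 ± 0.13 (edgeR adjusted p = 0.0659) against surfactant. The second passed without surfactant 007 (FDFT1 edgeR adjusted p = 0.0149) and in DESeq2 (adjusted p = 0.00655), and the first was lost with gestational age as a covariate (adjusted p = 0.104). The other 16 had log2 changes between -0.39 (PMVK, surfactant against no ventilation) and 0.26 (SC5D, budesonide against no ventilation). LSS with budesonide against no ventilation passed without unventilated 060, and TM7SF2 in the same comparison without surfactant 051 (edgeR adjusted p = 0.0469 for LSS and 0.0205 for TM7SF2).

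HMGCS1 in PVWM held 796, 733, 690.3 and 766 CPM with budesonide, 732, 963, 715 and 991 with surfactant and 700.1, 887, 889 and 873 without ventilation. DHCR7 held 90.8, 59.6, 72.6 and 76.9 CPM with budesonide, 68.8, 91.4, 79.2 and 88.8 with surfactant and 74.0, 77.9, 79.9 and 80.1 without ventilation. Both genes, with the most negative changes of the synthesis genes in surfactant livers, overlapped across the groups here. Unventilated lamb 057 held the least HMGCS1, IDI1, MSMO1, SC5D and INSIG2 of its group.

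Cell type markers of PVWM also differed between the groups. None of the 6 oligodendrocyte markers was called, and they summed to 1242 to 3021 CPM with budesonide, 905 to 13648 CPM with surfactant and 802 to 2142 CPM without ventilation. Leaving out surfactant 051, whose sum was the highest, changed no member call between surfactant and no ventilation. Macrophage and microglia markers summed to 72.8 to 93.7 CPM with budesonide, 112 to 159 CPM with surfactant and 117 to 130 CPM without ventilation, and 1 of the 5, CSF1R, fell with budesonide against surfactant (-0.98 ± 0.11, edgeR adjusted p = 0.00165). Astrocyte markers summed to 4697 to 5677 CPM with budesonide, 5104 to 5943 CPM with surfactant and 3614 to 4419 CPM without ventilation, and GFAP, 1 of the 4, rose in both ventilated groups (1.53 ± 0.11 and 1.45 ± 0.11, edgeR adjusted p = 6.46e-06 and 4.67e-05). With budesonide against no ventilation, AQP4 of astrocytes, KDR of endothelium and CSF1R and C1QB of microglia also fell, and AIF1 of microglia and CSPG4 of oligodendrocyte precursors rose, with log2 changes of -0.64, -0.98, -0.99, -0.54, 0.53 and 0.56 in that order. Their part in the changes of INSIG1, ABCG1, NR1H3 and FDFT1 was not tested.

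The 2 tissues of these lambs were then compared in 1 fit of all 24 libraries, which tested the liver change minus the PVWM change. For surfactant against no ventilation, 7 of the 32 members had a higher change in liver and 19 a lower one, where 14.6% and 11.2% of the 20010 genes tested did. Of the 17 synthesis genes, 15 had a lower change in liver, PMVK had a higher one and HSD17B7 was not called. The call of MVK was lost without any one of liver surfactant 051 or unventilated 057, or of PVWM surfactant 032 or 051 or unventilated 058, 060 or 061 (MVK edgeR adjusted p = 0.0512 to 0.0745). DHCR7 differed by -2.43 ± 0.30 (edgeR adjusted p = 5.74e-06), HMGCS1 by -2.36 ± 0.39 (edgeR adjusted p = 0.000145) and PMVK by 3.17 ± 0.33 (edgeR adjusted p = 7.61e-07). These are differences of log2 changes, not levels. The genes with a higher change in liver were PMVK, NPC1, ABCA1, NR1H2, MYLIP, SOAT1 and CH25H. ABCA1 differed by 3.10 ± 0.29 (edgeR adjusted p = 2.23e-07), and CH25H by 7.51 ± 1.49 (edgeR adjusted p = 0.000856).

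**Figure D5:**
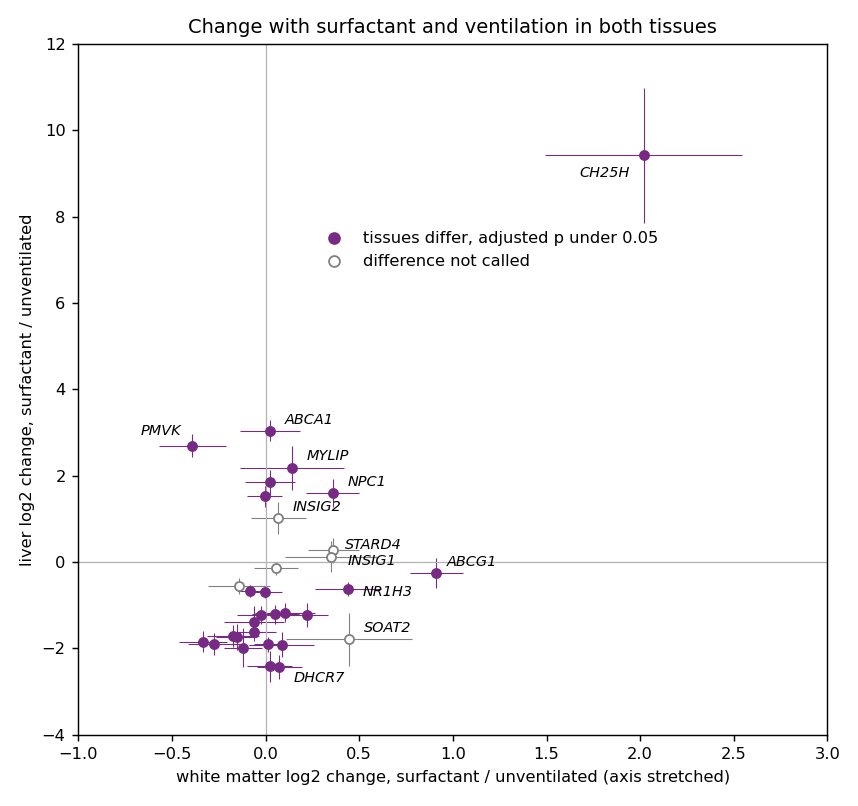
Log2 change of each of the 32 members with surfactant against no ventilation, in PVWM on the horizontal axis, which is stretched, and in liver on the vertical axis. Bars are SE, and filled points are genes whose change differed between the tissues. All points but CH25H lie within 1 of 0 in PVWM, and the 32 spread from -2.43 to 9.42 in liver.

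With surfactant against no ventilation, ABCG1 and NR1H3 had positive changes in PVWM and negative ones in liver, though not all were called. ABCG1 changed by -0.25 ± 0.35 in liver, which was not called, and by 0.91 ± 0.14 in PVWM. NR1H3 changed by -0.62 ± 0.16 in liver and by 0.44 ± 0.18 in PVWM, which was not called. The difference was -1.10 ± 0.40 (edgeR adjusted p = 0.0483) for ABCG1, and that call was lost without any one of 17 of the 24 libraries (ABCG1 edgeR adjusted p = 0.0543 to 0.109). It held without liver budesonide 031, 050 or 054, surfactant 032 or unventilated 057 or 059, or PVWM surfactant 007. For NR1H3 it was -0.98 ± 0.23 (edgeR adjusted p = 0.00382). NR1H3 and SREBF2 lost their call when the animal was a replicate block (edgeR adjusted p = 0.0548 and 0.0709), and SOAT2, which differed by -2.18 ± 0.83 (edgeR adjusted p = 0.0571), gained one (adjusted p = 0.00977). SOAT2 also passed without liver surfactant 007 or 051 or PVWM surfactant 051, and INSIG2, which differed by 1.02 ± 0.40 (edgeR adjusted p = 0.0648), passed without liver surfactant 049 or unventilated 059 or PVWM unventilated 057. With gestational age as a covariate, with a slope per tissue, 2 members had a higher change in liver and 9 a lower one, beside 2.14% and 1.17% of all genes. The 2 were PMVK and ABCA1, and the 9 were all synthesis genes. Calls were lost by NPC1, NR1H2, MYLIP, SOAT1 and CH25H among those higher in liver. Among those lower, MVK, MVD, FDFT1, EBP, SC5D, ACAT2, SREBF2, SCAP, ABCG1 and NR1H3 lost theirs.

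The budesonide change also differed between the tissues for 3 members, where 1.41% of all genes had a higher change in liver and 2% a lower one. IDI1 differed by 1.12 ± 0.29 (edgeR adjusted p = 0.0338), ABCA1 by -1.30 ± 0.28 (edgeR adjusted p = 0.0124) and SOAT2 by -3.20 ± 0.82 (edgeR adjusted p = 0.0313). The ABCA1 difference kept its call under all 29 alternative settings. With the animal as a replicate block IDI1 was not called (edgeR adjusted p = 0.0769) and NPC1, at 1.17 ± 0.36 (edgeR adjusted p = 0.0698), became called (adjusted p = 0.0481). IDI1 also lost its call without any one of liver budesonide 031 or 048, PVWM budesonide 048, 050 or 054 or PVWM surfactant 032 or 051 (IDI1 edgeR adjusted p = 0.0639 to 0.0752). SOAT2 lost it without any one of liver budesonide 048, PVWM budesonide 031, 048 or 050 or PVWM surfactant 032, 049 or 051 (SOAT2 edgeR adjusted p = 0.0507 to 0.0696), and with gestational age as a covariate (0.0515). Calls were gained by NPC1 without liver surfactant 007 or 051 or budesonide 050, by NR1H2 without liver surfactant 007, and by DHCR7 without liver surfactant 051.

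In unventilated lambs, liver was higher than PVWM for 19 members and lower for 5, beside 36.1% and 41.7% of all genes tested. The share of members called, without regard to direction, was near that of all genes, but the split by direction was not. Members were more often higher than lower in liver, whereas all genes were more often lower than higher. The median log2 difference was 0.62 over the members and -0.11 over all genes. SOAT2 held 171, 149, 123 and 111 CPM in liver and 1.23, 0.642, 1.19 and 1.11 CPM in PVWM, each scaled within its tissue, and differed by 7.84 ± 0.67 (edgeR adjusted p = 3.11e-10). NR1H3 held 50.9, 46.9, 60.0 and 37.7 CPM in liver and 12.4, 8.79, 10.7 and 8.73 CPM in PVWM, and differed by 3.05 ± 0.18 (edgeR adjusted p = 2.88e-13). EBP held 129, 87.2, 96.6 and 80.7 CPM in liver and 24.3, 18.7, 21.2 and 19.6 CPM in PVWM, and differed by 3.02 ± 0.22 (edgeR adjusted p = 1.69e-11). For these 3 genes every liver was above every PVWM sample in CPM. The differences come from the joint fit, which has its own scaling, so they need not match the ratio of the CPM printed beside them.

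The 5 members lower in liver were HMGCS1, FDPS, TM7SF2, SCAP and NPC1. HMGCS1 held 211, 150.3, 166 and 169 CPM in liver and 700.1, 887, 889 and 873 CPM in PVWM, each scaled within its tissue. In the joint fit HMGCS1 differed by -1.47 ± 0.27 (edgeR adjusted p = 4.42e-05). SCAP differed by -0.75 ± 0.11 (edgeR adjusted p = 1.16e-06), NPC1 by -0.98 ± 0.26 (edgeR adjusted p = 0.00159), TM7SF2 by -0.71 ± 0.22 (edgeR adjusted p = 0.00603) and FDPS by -0.51 ± 0.17 (edgeR adjusted p = 0.00894). DHCR7, NSDHL, SQLE, FDFT1, HSD17B7, ABCG1, SOAT1 and CH25H were not called, and CH25H had the smallest difference (0.07 ± 1.09, edgeR adjusted p = 0.954). In surfactant lambs CH25H held 31.0, 1003, 1445 and 1510.0 CPM in liver and 4.49, 4.10, 16.6 and 13.2 CPM in PVWM, with every liver above every PVWM sample. With the animal as a replicate block, 17 members were higher in liver and 5 lower, SREBF2 and NR1H2 no longer being called (edgeR adjusted p = 0.0523 and 0.0656). With gestational age as a covariate, HMGCS1 and SCAP remained called lower in liver, and FDPS, TM7SF2 and NPC1 lost their calls. Among the members higher in liver, LSS, STARD4 and MYLIP lost theirs in that fit. LSS lost its call without liver 057 or PVWM 060 (LSS edgeR adjusted p = 0.0507 and 0.0753), and NR1H2 without PVWM 061 (0.0516). NSDHL and SQLE passed without any one of liver surfactant 007, 049 or 051, budesonide 054 or unventilated 057. NSDHL also passed without liver surfactant 032, SQLE without liver budesonide 050 and FDFT1 without liver surfactant 049.

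Other genes of sterol handling came from 4 further lists, of which 48 symbols had a row. In liver with surfactant against no ventilation, 12 of 47 tested rose and 11 fell, shares near the 21.6% and 19.5% of all liver genes. GRAMD1A, which moves cholesterol from the plasma membrane to the endoplasmic reticulum, held 193 to 601 CPM with surfactant and 22.2 to 33.05 CPM without ventilation (3.68 ± 0.35, edgeR adjusted p = 1.77e-05). PAQR3, which anchors SCAP in the Golgi, rose by 1.65 ± 0.21 (edgeR adjusted p = 0.000132). SCARB1, a receptor for high density lipoprotein, rose by 2.03 ± 0.35 (edgeR adjusted p = 0.000912), and LIPA, the lysosomal lipase that frees cholesterol from its esters, by 1.57 ± 0.28 (edgeR adjusted p = 0.00105). Of the 15 uptake and transport genes, 7 rose and none fell.

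Among those that fell were ABCG5 and ABCG8, the paired exporters of sterol into bile. ABCG8 held 13.2 to 20.9 CPM with surfactant and 45.4 to 72.3 CPM without ventilation (-1.86 ± 0.23, edgeR adjusted p = 0.000114), and ABCG5 held 6.602 to 8.77 CPM with surfactant and 13.2 to 22.8 CPM without ventilation (-1.10 ± 0.19, edgeR adjusted p = 0.000767). LCAT, the plasma enzyme that esterifies cholesterol on lipoproteins, changed by -1.14 ± 0.17 (edgeR adjusted p = 0.000393). ACSS2, which makes acetyl-CoA from acetate, changed by -1.24 ± 0.22 (edgeR adjusted p = 0.000959). With budesonide against no ventilation, 15 of the 47 rose and 13 fell, beside 23.3% and 23.7% of all genes. Of the 15 uptake and transport genes, 6 rose and 4 fell in that comparison. Next to the genes above NUS1 of dolichol synthesis, the sterol transfer gene OSBPL2 and COQ2 of coenzyme Q synthesis changed by 1.397 ± 0.23, 0.99 ± 0.18 and -1.31 ± 0.19 (edgeR adjusted p = 0.000375, 0.000721 and 0.000181).

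Between the ventilated livers, 3 of the 47 rose with budesonide and 5 fell, shares near the 4.01% and 7.85% of all genes. LPCAT3, a phospholipid remodelling enzyme induced by LXR, held 37.8 to 56.2 CPM with budesonide and 19.2 to 27.6 CPM with surfactant (0.95 ± 0.21, edgeR adjusted p = 0.0143). ERLIN1, which acts on the turnover of sterol synthesis enzymes, rose by 0.83 ± 0.22 (edgeR adjusted p = 0.0303). NCEH1, a hydrolase of cholesterol esters, held 1.66 to 5.01 CPM with budesonide and 8.90 to 13.3 CPM with surfactant (-1.88 ± 0.35, edgeR adjusted p = 0.00651). ABCG5 held 4.24 to 4.72 CPM with budesonide and 6.602 to 8.77 CPM with surfactant (-0.83 ± 0.19, edgeR adjusted p = 0.0168). The lipoprotein receptor genes VLDLR and LRP1 changed by -1.69 ± 0.40 (edgeR adjusted p = 0.0199) and -0.65 ± 0.17 (edgeR adjusted p = 0.0277), and the ranges of VLDLR overlapped.

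In PVWM none of 46 such genes was called by edgeR between budesonide and surfactant. At an unadjusted edgeR p under 0.05, 2 of them were higher and 3 lower, beside 2217 of all 18616 genes in either direction. With surfactant against no ventilation GRAMD1A rose alone, at 84.9 to 109.8 CPM against 66.5 to 78.3 CPM (0.45 ± 0.09, edgeR adjusted p = 0.0201). With budesonide against no ventilation 5 rose and none fell, beside 4.35% and 3.71% of all genes. MBTPS1 and MBTPS2, the proteases that cleave the SREBP precursors, rose by 0.39 ± 0.08 (edgeR adjusted p = 0.00725) and 0.45 ± 0.12 (edgeR adjusted p = 0.0359). GRAMD1A rose by 0.35 ± 0.09 (edgeR adjusted p = 0.0299) and ACAT1, the mitochondrial thiolase, by 0.41 ± 0.11 (edgeR adjusted p = 0.0401).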

How the data were processed

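Gene expression was measured in 24 libraries, 12 of liver and 12 of PVWM. Per the labels' protocols, RNA was extracted with Trizol, poly-A selected and sequenced as paired 75 bp reads. The deposited tables hold raw read counts per gene, which the authors made with Bowtie2 and featureCounts, per the submitters' processing notes; those notes also name edgeR. Versions, counting options and the genome build are not given in the sources used here.

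Each tissue was fitted with edgeR 4.0.16 (R 4.3.3), using filterByExpr, TMM scaling and the robust quasi-likelihood test over 3 groups. Genes with a Benjamini-Hochberg adjusted p under 0.05 were called. SE was taken from the test, as the size of the log2 change over the root of F. A joint fit of the 24 libraries over 6 groups, with its own scaling, tested differences between tissues. The code was first tested on simulated data. Total counts of 14.9 to 23.2 M set the counting precision. Lambs of 1 group varied by a coefficient of 0.304 over liver genes and 0.197 over PVWM genes beyond counting error.

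The members and lists were chosen with earlier results of these data known. Members were named with their values where called or outside synthesis, and other genes as the 4 called per direction with the smallest p. Alternatives were median-ratio scaling, no low-count filter, DESeq2 1.42.0, gestational age or sex as covariates, the 2 groups alone, CPM on raw totals, each library left out, and an animal block. The labels give 11 animals in both tissues. Deviations from the group means correlated at 0.0794 to 0.198 between the tissues of an animal (median 0.123) and at a median of -0.008 between different animals, so the animal block, which the joint fit itself lacks, is given wherever it changed a call. Some genes of the lists are not reported here by name. No sequences are shown.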

Additional observations from a re-analysis of the deposited data

Results flagged for a closer look

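In 15 of 192 groups of 4 lambs, 1 sample stood apart from the other 3 by Dixon's criterion, where chance gives about 1 group in 20. Unventilated lamb 057 accounted for 5 of these in PVWM. It was the lowest of its group for HMGCS1 at 700.1 CPM (others 873 to 889), IDI1 at 86.1 CPM (others 137 to 141), SC5D at 105 CPM (others 144 to 149) and INSIG2 at 20.9 CPM (others 33.8 to 35.7). It was the highest for MVK at 17.1 CPM (others 13.2 to 13.4). Unventilated lamb 058 was the lowest in PVWM for SOAT2 at 0.642 CPM (others 1.11 to 1.23). Budesonide lamb 048 was the lowest in PVWM for SQLE at 104 CPM (others 122 to 125).

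In liver, surfactant lamb 007 was the lowest for CH25H at 31.0 CPM (others 1003 to 1510.0) and for MYLIP at 68.3 CPM (others 249.8 to 293). Surfactant lamb 049 was the highest for FDPS at 4.44 CPM (others 3.19 to 3.28) and for SQLE at 25.3 CPM (others 7.05 to 8.40). Budesonide lamb 054 was the lowest for HSD17B7 at 5.40 CPM (others 7.97 to 8.43) and the highest for INSIG2 at 101 CPM (others 79.4 to 81.2). Unventilated lamb 059 was the highest for INSIG2 at 80.4 CPM (others 41.9 to 42.2), and unventilated lamb 058 was the lowest for MSMO1 at 168 CPM (others 199 to 205).

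The change with surfactant against no ventilation differed between liver and PVWM for 26 members in the joint edgeR test. As liver minus PVWM on the log2 scale, the early synthesis genes differed by -1.47 (ACAT2), -2.36 (HMGCS1), -1.25 (MVK), 3.17 (PMVK), -1.19 (MVD), -1.20 (IDI1) and -1.48 (FDPS). The middle and late ones differed by -1.13 (FDFT1), -1.79 (SQLE), -1.43 (LSS), -1.50 (TM7SF2), -1.92 (MSMO1), -1.84 (NSDHL), -1.54 (EBP), -1.39 (SC5D) and -2.43 (DHCR7). Regulation and transport genes differed by -0.52 (SREBF2), -0.62 (SCAP) and 1.31 (NPC1). LXR and efflux genes differed by 3.10 (ABCA1), -1.10 (ABCG1), 1.61 (NR1H2), -0.98 (NR1H3) and 2.12 (MYLIP). SOAT1 and CH25H differed by 1.90 and 7.51. The change with budesonide against surfactant differed for IDI1 (1.12), ABCA1 (-1.30) and SOAT2 (-3.20).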

How the results depend on the processing

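Of 115 calls over the 9 comparisons, 65 held under all alternatives and 50 were lost under at least 1, while 25 of 173 uncalled results were gained. No called change reversed its direction. Of the 192 group means, 10 moved by more than 1 SD with CPM on raw totals. The cause of each shift below was not tested. With gestational age as a covariate, liver surfactant against unventilated gave 1398 genes (4 members higher, 13 lower) in place of 6911, and budesonide against unventilated 2958 genes in place of 7903. In PVWM it gave 15 genes and 0 members for surfactant against unventilated (382 without it) and 346 genes and 0 members for budesonide against unventilated (1501 without it). In the joint fit with a slope per tissue, the ventilation difference gave 664 genes in place of 5170 (2 members higher, 9 lower), the budesonide difference 1 member lower and unventilated liver against PVWM 2 lower. With sex as a covariate, which left out liver 060 and PVWM 061 for want of a sex label on the sample, counts were 4273 genes for liver surfactant against unventilated, 2 members lower for liver budesonide against surfactant, 80 genes for PVWM budesonide against surfactant (182 without it), 97 genes and 0 members for PVWM surfactant against unventilated, and 668 genes and 0 members higher for PVWM budesonide against unventilated. With 2 groups fitted alone, liver budesonide against surfactant gave 884 genes (1994 with 3 groups) and 1 member lower. The same fit in PVWM gave 69 genes and 0 members lower for budesonide against surfactant, 174 genes for surfactant against unventilated, and 3 members lower for budesonide against unventilated. DESeq2 gave 3135 genes for liver budesonide against surfactant, 548 genes (3 members lower) for the same comparison in PVWM, 821 genes (2 members higher) for PVWM surfactant against unventilated, 2 members lower for PVWM budesonide against unventilated, and 1318 genes (683 in edgeR) and 2 members higher for the budesonide difference between tissues.

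With the animal as a replicate block, fitted on the animals that gave both tissues, the ventilation difference gave 7 members higher and 18 lower and 3748 genes. The paired budesonide difference gave 428 genes and 1 member higher and 2 lower, and the paired unventilated comparison 17 higher and 5 lower. The paired fit changed no member call other than those of SREBF2, NR1H2, NR1H3, SOAT2, IDI1 and NPC1 given above.

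Leaving out 1 library at a time gave these ranges. Liver budesonide against surfactant gave 1007 to 2838 genes, 0 to 2 members higher and 1 to 6 lower. Liver surfactant against unventilated gave 5509 to 8109 genes, 7 to 8 higher and 18 to 20 lower. Liver budesonide against unventilated gave 6654 to 8517 genes, 6 to 8 higher and 16 to 19 lower. In PVWM the ranges were 66 to 207 genes, 0 to 0 higher and 0 to 2 lower for budesonide against surfactant, 173 to 501 genes, 1 to 2 higher and 0 to 0 lower for surfactant against unventilated, and 998 to 1657 genes, 0 to 2 higher and 1 to 2 lower for budesonide against unventilated. The ventilation difference gave 4364 to 6650 genes, 7 to 8 higher and 17 to 19 lower, the budesonide difference 419 to 1476 genes, 0 to 2 higher and 1 to 3 lower, and unventilated liver against PVWM 15228 to 15928 genes (15585 with all libraries), 18 to 20 higher and 5 to 7 lower. With 4 lambs a group, a member that was not called is not shown to be unchanged.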
